A study of Mus musculus with 5 samples.

Results

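The MHC class I antigen presentation genes examined here are 10 genes, found by symbol among the 54100 Ensembl genes of the deposited table through the GRCm38 annotation: B2m, H2-K1, H2-D1, Tap1, Tap2, Tapbp, Psmb8, Psmb9, Psmb10 and Nlrc5. All 10 were in the table. They were followed across 5 libraries of B16F10, a pigmented melanoma line of C57BL/6 mice, in which transcripts were counted by RNA sequencing of poly(A)+ transcripts with strand kept. The 5 groups, with 1 library each, were conventional 3D culture (genotype WT), dynamic suspension culture (genotype WT), an shControl line (also entered as WT), a line labelled HIF-1α knockdown and a line labelled HIF-1α overexpression (below, the knockdown-labelled and overexpression-labelled libraries), all listed as untreated. The labels give every group the same growth protocol, with shaking at 60 to 80 rpm in medium without serum over 7 to 10 days, and the design text states that 3 repeats of each culture were pooled. The vectors behind the construct lines, and whether each line is a clone or a pool, are not stated in the labels. With 1 library in each group no difference has a replicate check, no test between conditions was possible, and every comparison is between 2 libraries.

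Class I molecules display peptides from inside the cell to CD8 T cells. The proteasome cuts cytosolic proteins, and under interferon its catalytic subunits are replaced by the inducible subunits encoded by Psmb8, Psmb9 and Psmb10. The peptides are pumped into the endoplasmic reticulum by the TAP1 and TAP2 transporter and loaded with the help of tapasin, encoded by Tapbp, onto a heavy chain (H2-K1 or H2-D1) paired with β2-microglobulin, encoded by B2m. NLRC5 is the transcriptional activator dedicated to these genes. B16 melanoma is known as a line with low class I expression at rest that interferon raises.

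The sequences just upstream of 5 of the members are shown because the members are known to share regulatory elements there. They come from RefSeq (GRCm38.p6), read 5′ to 3′ in the gene's direction up to the base before the RefSeq start. Words of 4 kinds were searched on both strands and are in capitals: the IRF word (GAAA, any 2 bases, GAAA), the NF-kappaB consensus, TGACG, which is the core of the CRE, and CCAAT. Promoters were matched for 8 of the 10 members. B2m lies at chr2:122147437-122147686 (plus strand), H2-K1 at chr17:34000348-34000597 (minus strand) and H2-D1 at chr17:35262844-35263093 (plus strand), each with 250 bases. Psmb9 and Tap1 are transcribed away from each other, and the 225 bases between their RefSeq starts, chr17:34187331-34187555, are given on the plus strand, which is the strand of Tap1.
B2m: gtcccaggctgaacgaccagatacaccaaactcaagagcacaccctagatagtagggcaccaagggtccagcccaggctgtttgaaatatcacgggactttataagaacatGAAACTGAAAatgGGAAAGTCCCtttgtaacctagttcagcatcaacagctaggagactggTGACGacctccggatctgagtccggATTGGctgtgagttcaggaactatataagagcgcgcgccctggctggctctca
H2-K1: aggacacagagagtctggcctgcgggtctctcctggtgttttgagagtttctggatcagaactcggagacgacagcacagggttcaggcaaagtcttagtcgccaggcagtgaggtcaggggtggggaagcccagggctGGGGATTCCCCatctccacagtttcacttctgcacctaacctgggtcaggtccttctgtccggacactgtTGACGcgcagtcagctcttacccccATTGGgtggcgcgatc
H2-D1: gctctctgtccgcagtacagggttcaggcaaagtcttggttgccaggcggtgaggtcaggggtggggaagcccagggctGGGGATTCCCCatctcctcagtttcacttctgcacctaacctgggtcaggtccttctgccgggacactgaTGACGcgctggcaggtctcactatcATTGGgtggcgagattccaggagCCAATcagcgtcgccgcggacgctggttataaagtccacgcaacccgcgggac
Psmb9-Tap1: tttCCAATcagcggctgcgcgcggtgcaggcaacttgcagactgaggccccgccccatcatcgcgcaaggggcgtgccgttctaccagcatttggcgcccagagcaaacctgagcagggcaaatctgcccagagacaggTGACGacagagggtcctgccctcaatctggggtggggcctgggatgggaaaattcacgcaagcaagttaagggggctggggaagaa

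The NF-kappaB word was present in B2m, H2-K1 and H2-D1, 3 of the 8 members with a promoter, and in 7.25% of all 32851 promoter windows of this length. In H2-K1 and H2-D1 it occurred as 2 overlapping matches. The IRF word was found in B2m alone of the 8, against 2.98% of all windows. Only exact matches of this word were counted, so a window without it may still hold an IRF element of other letters. TGACG was in 5 of the 8 (17.8% of all windows) and CCAAT in 6 of the 8 (33.9%). For Tap1 and Psmb9 these were the same sites between their starts, counted for each gene. The windows of H2-K1 and H2-D1 were 89.5% identical over the 190 bases aligned without gaps, and their longest identical stretch was 47 bases. The Psmb8 and Psmb10 windows held none of these words. A match is a description of the letters and no evidence of binding.

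Several members also share transcript sequence with other genes, which matters for how reads were assigned. Of the words of 50 bases in their transcripts, 23.2% were shared for Tapbp, 12.8% for H2-D1, 11.9% for Psmb8, 11.6% for Tap2 and 9.63% for H2-K1, against 4.19% for Psmb9, 3.33% for Tap1, 0.338% for Nlrc5 and 0.0% for B2m and Psmb10. For H2-K1 and H2-D1 the leading partners were each other and H2-Q genes, and for H2-D1 also H2-T23 and Gm7030 (3.9% of its words each), so reads could be split among them. For Tapbp, Psmb8 and Tap2 they were mainly antisense or noncoding genes at the same place. Words were matched on both strands, so an antisense gene counts as sharing although the libraries kept strand. These partners were low: Gm19412, over Tapbp, had at most 63 counts, Gm20496, over Psmb8, had 0 in every library, and Gm15821, over Tap2, had at most 14.

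The 5 columns are of 2 kinds. Those of shControl, dynamic suspension and conventional 3D hold estimated counts that sum to 59493240 to 61267892, and the columns labelled knockdown and overexpression hold plain counts that sum to 14803426 and 15393189. Comparisons were made first within a kind. Levels are TMM-scaled CPM, which is counts scaled to a common library size, and intervals are 95% counting intervals that cover counting error only and are approximate for estimated counts. A count of 0 allows up to 3 counts, which is 0.0487 to 0.0564 CPM in the estimated columns and 0.179 to 0.197 CPM in the plain ones. A gene is called beyond 2-fold when its log2 ratio (prior count of 2) is at least 1 in size, the mean of the 2 libraries is at least 1 CPM, and the counting interval excludes equality. All 7 melanocyte markers were measured in the series, with summed levels of 14700 to 30823 CPM, whereas Cd3e, Itgam, Ncr1, Nkg7 and Flt3 of 12 immune markers were at 0 counts in every library. Hif1a was higher, not lower, in the knockdown-labelled library than in shControl (95.1 against 61.3 CPM), so no direction from it can be read as lower Hif1a. The labels tie it to a column headed B16F10, the name of the line alone, and whether it is a knockdown line was not tested. It was 384 CPM in the overexpression-labelled library, 542 CPM in conventional 3D and 390.5 CPM in dynamic suspension.

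Together the 10 genes made up 0.178% of all counts in dynamic suspension (Clopper-Pearson 95% interval 0.177 to 0.179), 0.137% in conventional 3D (0.136 to 0.137) and 0.0611% in shControl (0.0605 to 0.0617). In the plain-count columns the share was 0.0826% in the overexpression-labelled library (0.0811 to 0.0840) and 0.0353% in the knockdown-labelled library (0.0343 to 0.0363). Dynamic suspension was thus the highest and shControl the lowest of the estimated columns, and the overexpression-labelled library stood above the knockdown-labelled one. B2m, H2-K1 and H2-D1 supplied 75.8% to 88.3% of these counts. In bulk RNA, fewer cells with a transcript and less of it per cell cannot be told apart.

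**Figure D1:**
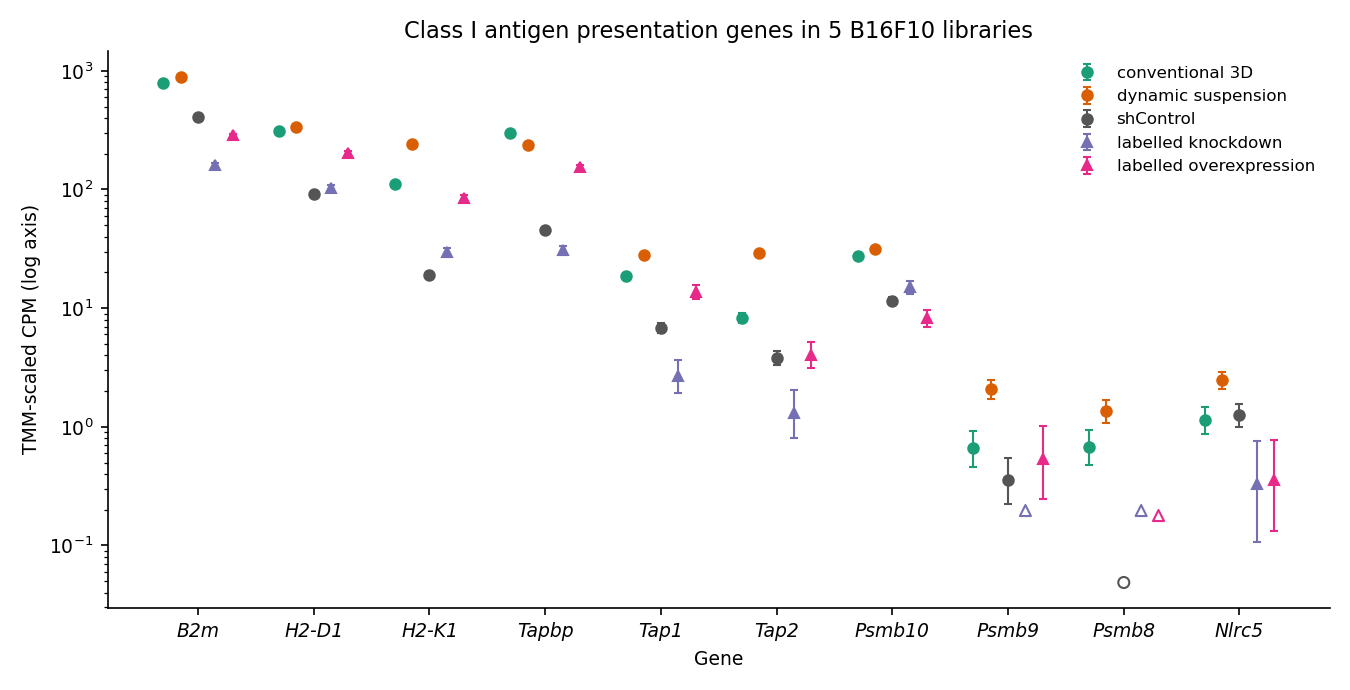
TMM-scaled CPM (log axis) of the 10 genes in each library, circles for estimated-count columns and triangles for plain-count columns, with bars for the 95% Poisson counting interval. Open symbols mark 0 counts, drawn at the level of 3 counts. Dynamic suspension is the highest estimated column for 9 of the 10 genes, Tapbp being the exception.

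Per kilobase of merged exons, B2m was the most abundant member in every library, from 186 CPM per kb in the knockdown-labelled library to 1041 in dynamic suspension, and H2-D1 was second. Psmb8, Psmb9 and Nlrc5 held the last 3 places in every library. Nlrc5 was between 0.0386 and 0.292 CPM per kb. These low members rest on few counts: Nlrc5 on 5 to 150, Psmb9 on 0 to 125 and Psmb8 on 0 to 82. The order near the top depends on the length used. With the median length of protein-coding transcripts, H2-D1 was above B2m in both plain-count columns, and Tapbp was above B2m in the overexpression-labelled library. Those medians were short for H2-D1 (406 bases, against 2579 of merged exons) and Tapbp (413 against 3628). B2m kept its 860 bases, so the changes in order rest on these short lengths. Psmb8, Psmb9 and Nlrc5 remained last.

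The light chain gene B2m (chromosome 2, 122147686 to 122153083) was 788 CPM in conventional 3D, 895 in dynamic suspension and 409.6 in shControl, with intervals of 781 to 796, 888 to 903 and 405 to 415. It was 160.3 CPM in the knockdown-labelled library and 287 in the overexpression-labelled library. The cultures without a construct were therefore both above shControl and close to each other. The log2 ratio over shControl was 1.13 in dynamic suspension (1.11 to 1.15), beyond 2-fold, and 0.94 in conventional 3D (0.92 to 0.97), just short of it. Dynamic suspension and conventional 3D differed by a log2 ratio of 0.18 (0.17 to 0.20).

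Among the heavy chains, H2-K1 (chromosome 17, 33996017 to 34000347), which encodes the K molecule, varied more between libraries than H2-D1, which encodes the D molecule. H2-K1 was 112 CPM in conventional 3D, 243 in dynamic suspension, 19.0 in shControl, 29.5 in the knockdown-labelled library and 84.5 in the overexpression-labelled library. Dynamic suspension was 12.8-fold above shControl (log2 ratio 3.67, interval 3.59 to 3.76), a larger ratio than 99.3% of the genes tested there. It was also 2.17-fold above conventional 3D (log2 ratio 1.12, interval 1.07 to 1.16). The overexpression-labelled library was 2.86-fold above the knockdown-labelled one (log2 ratio 1.52, interval 1.36 to 1.67).

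H2-D1 (chromosome 17, 35262730 to 35267499) was 313 CPM in conventional 3D, 334 in dynamic suspension and 92.3 in shControl. It was 103 CPM in the knockdown-labelled library and 202 in the overexpression-labelled library. The cultures without a construct stood at log2 ratios of 1.76 and 1.85 over shControl and differed from each other by 0.09 (0.06 to 0.12). Overexpression over knockdown, by the labels, was 0.97 (0.89 to 1.06), at the edge of the 2-fold rule. The ratio of H2-K1 to H2-D1 within a library, per merged exon length, was 63.9% in dynamic suspension (62.5 to 65.2), 31.4% in conventional 3D (30.4 to 32.3) and 18.1% in shControl (17.0 to 19.3). It was 25.2% in the knockdown-labelled library (22.6 to 28) and 36.7% in the overexpression-labelled library (34.5 to 39.0). The intervals of the 3 estimated columns did not overlap, nor did those of the 2 plain columns. They cover counting error only, which is small at these counts, and not variation between cultures. This ratio does not depend on the scaling between libraries, but it does depend on how reads were split between the 2 genes.

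Because reads can be split among class I heavy chains, all 13 H2-K, H2-D, H2-Q, H2-T and H2-M genes with any count were also summed, a choice made after the data were seen. The sum was 531 CPM in conventional 3D, 754 in dynamic suspension and 151 in shControl, and 173 and 348 CPM in the knockdown-labelled and overexpression-labelled libraries. The summed log2 ratio was 2.32 for dynamic suspension over shControl, 1.81 for conventional 3D over shControl, 0.51 for dynamic suspension over conventional 3D and 1.01 for overexpression over knockdown by the labels. H2-K1 and H2-D1 supplied 73.6% to 82.4% of it.

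The transporter genes lie next to each other with Psmb9 and Psmb8 in the class II part of the MHC. Tap1 (chromosome 17, 34187553 to 34197225) was 18.6 CPM in conventional 3D, 27.8 in dynamic suspension and 6.84 in shControl, and 2.69 and 13.7 CPM in the knockdown-labelled and overexpression-labelled libraries. Its log2 ratio was 2.02 for dynamic suspension over shControl (1.87 to 2.18), 1.44 for conventional 3D over shControl (1.28 to 1.61) and 2.33 for overexpression over knockdown by the labels (1.86 to 2.86). Each of these was beyond 2-fold, whereas dynamic suspension over conventional 3D was 0.58 (0.47 to 0.69).

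Tap2 (chromosome 17, 34203527 to 34216321) separated the culture methods more than any other member. It was 8.31 CPM in conventional 3D, 29.1 in dynamic suspension, 3.799 in shControl, 1.31 in the knockdown-labelled library and 4.05 in the overexpression-labelled library. Dynamic suspension was 3.51-fold above conventional 3D (log2 ratio 1.81, interval 1.66 to 1.96), while Tap1 differed 1.49-fold. Counted against Tap1 per merged exon length, Tap2 was at 152% in dynamic suspension (142 to 163), 64.7% in conventional 3D (57.7 to 72.5) and 80.5% in shControl (68.3 to 94.7). In the plain columns it was 70.6% (39.2 to 123) in the knockdown-labelled library and 42.8% (32.2 to 56.3) in the overexpression-labelled one, intervals that overlap. Which of the genes is above the other depends on the length used. With the median length of protein-coding transcripts, Tap2 was above Tap1 in every library, from 204% in the overexpression-labelled library to 726% in dynamic suspension. That median was only 378 bases for Tap2 and 2614 for Tap1, against merged exons of 3781 and 5476 bases. These percentages therefore rest largely on the short length taken for Tap2.

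Tapbp, the gene of the loading chaperone tapasin (chromosome 17, 33915899 to 33929292), was the 1 member lower in dynamic suspension than in conventional 3D. It was 302 CPM in conventional 3D, 235 in dynamic suspension and 45.5 in shControl, and 30.7 and 156 CPM in the knockdown-labelled and overexpression-labelled libraries. The log2 ratio of dynamic suspension to conventional 3D was -0.36 (-0.39 to -0.33). Over shControl it was 2.73 in conventional 3D (2.67 to 2.79), the largest of the members tested there, and 2.37 in dynamic suspension (2.31 to 2.43). The overexpression-labelled library was 5.08-fold above the knockdown-labelled one (log2 ratio 2.34, interval 2.20 to 2.49).

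Of the inducible proteasome subunits, Psmb10 was readily counted and the other pair barely. Psmb10 (chromosome 8, 105935735 to 105938444) was 27.2 CPM in conventional 3D, 31.7 in dynamic suspension and 11.5 in shControl. It was 14.96 CPM in the knockdown-labelled library and 8.22 in the overexpression-labelled library, the reverse of the order of the other members that reached 1 CPM. The log2 ratio between those libraries was -0.86 (-1.18 to -0.55), inside 2-fold. Over shControl the ratio was 1.46 in dynamic suspension (1.34 to 1.59) and 1.24 in conventional 3D (1.11 to 1.37).

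Psmb9 (chromosome 17, 34181987 to 34187764) had 35, 125 and 22 counts in conventional 3D, dynamic suspension and shControl, or 0.658, 2.07 and 0.357 CPM, with 0 and 9 counts in the knockdown-labelled and overexpression-labelled libraries. Dynamic suspension was 3.15-fold above conventional 3D (log2 ratio 1.58, interval 1.10 to 2.24) and 5.79-fold above shControl (log2 ratio 2.38, interval 1.87 to 3.26). With its 9 counts taken as exact and a floor of 3 counts in the knockdown-labelled library, Psmb9 was at least 2.72-fold higher in the overexpression-labelled one, and the 95% counting interval of the ratio began at 1.79-fold. Psmb8 (chromosome 17, 34197721 to 34201454) had 36 counts in conventional 3D and 82 in dynamic suspension, or 0.677 and 1.36 CPM, and 0 in each of the other 3 libraries. Against the floor in shControl, and with its own counts taken as exact, it was at least 27.9-fold higher in dynamic suspension and at least 13.9-fold higher in conventional 3D. The counting intervals of these ratios began at 22.2-fold and 10.7-fold. Whether Psmb8 differed between the plain-count libraries was not detectable at this depth.

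Each inducible subunit replaces 1 constitutive subunit: Psmb8 for Psmb5, Psmb9 for Psmb6 and Psmb10 for Psmb7. Over the 5 libraries the constitutive genes varied less, at 85.2 to 127 CPM for Psmb5 (54.1% of its words shared with other genes), 112 to 158 CPM for Psmb6 and 104 to 165 CPM for Psmb7. In the 6 comparisons 0 of the 3 was beyond 2-fold. Per merged exon length, Psmb10 stood at 58.1% of Psmb7 in dynamic suspension (55.2 to 61.2), 33.2% in conventional 3D (31.4 to 35.1) and 14.0% in shControl (13.0 to 15.1). It was 24.4% in the knockdown-labelled library (21.1 to 28) and 15.9% in the overexpression-labelled one (13.3 to 18.9). Psmb9 was at 0.943% of Psmb6 in dynamic suspension (0.783 to 1.13), 0.262% in conventional 3D (0.182 to 0.364) and 0.133% in shControl (0.0836 to 0.202). Psmb8 was at 0.393% of Psmb5 in dynamic suspension (0.312 to 0.489) and 0.167% in conventional 3D (0.117 to 0.232), and in shControl a count of 0 allows up to 0.0117%. Dynamic suspension thus had the highest ratio of the estimated columns for all 3 pairs. Between dynamic suspension and conventional 3D, however, Psmb7 was lower by more (log2 ratio -0.59, interval -0.64 to -0.54) than Psmb10 was higher (0.22, interval 0.12 to 0.32). The difference in their ratio between the culture methods therefore lay more in Psmb7 than in Psmb10. The size of each percentage depends on the gene length taken, and the comparison between libraries does not.

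**Figure D2:**
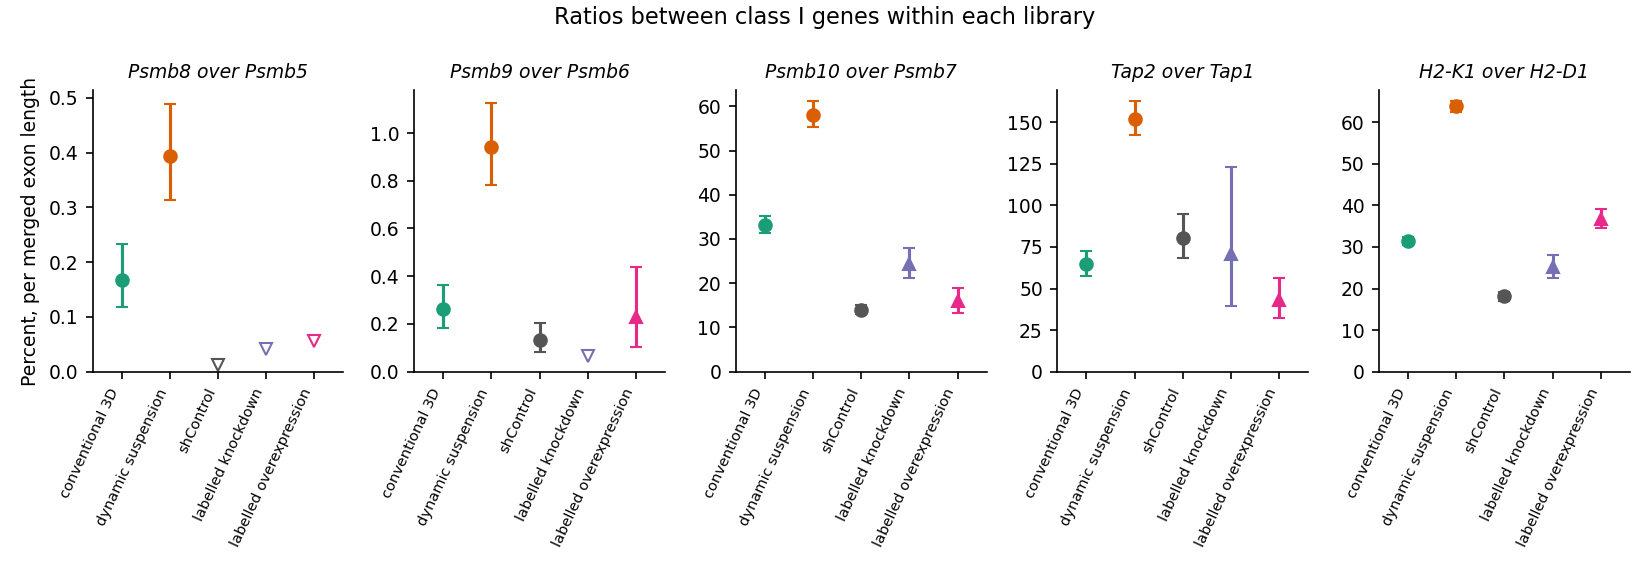
Ratio of 2 genes within each library, in percent per merged exon length, with 95% counting intervals (circles, estimated counts; triangles, plain counts; open inverted triangles, upper limit where the numerator had 0 counts). Dynamic suspension has the highest value in all 5 panels, for example 63.9% for H2-K1 over H2-D1 and 58.1% for Psmb10 over Psmb7.

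Nlrc5, the activator (chromosome 8, 94434356 to 94527272), was 1.15 CPM in conventional 3D (61 counts), 2.48 in dynamic suspension (150 counts) and 1.25 in shControl (77 counts). Dynamic suspension was 2.17-fold above conventional 3D (log2 ratio 1.08, interval 0.68 to 1.57). Conventional 3D culture and shControl did not differ beyond counting error (-0.12, interval -0.63 to 0.38), although 6 other members were beyond 2-fold higher there. In the plain-count libraries Nlrc5 had 5 and 6 counts, and a difference was not detectable at this depth.

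Counted per comparison, 4 of the 10 members exceeded their conventional 3D level beyond 2-fold in dynamic suspension (Tap2, Psmb9, H2-K1 and Nlrc5), and 0 were lower beyond 2-fold. Over all 12875 genes tested in that comparison, 6.44% were higher and 7.64% lower. All 10 members were tested, with a median log2 ratio of 0.77 against -0.02 over all genes, and a range of -0.36 to 1.81. With scaling by total counts, which moved all ratios up by 0.19, the background became 8.75% higher and 5.51% lower, and the members called remained 4 in number. Psmb8, at 0.96, was just short of the rule.

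Over shControl, 8 of the 10 members were higher beyond 2-fold in dynamic suspension and 0 lower, against 13.8% of all 12940 genes higher and 14.8% lower. The 9 members tested had a median log2 ratio of 2.02, against -0.03 over all genes. Nlrc5, at 0.96, was not called, and Psmb8 was below the CPM limit. In conventional 3D 6 members were higher and 0 lower, against 14.0% of all 12929 genes higher and 14.9% lower, and the 8 members tested had a median of 1.34, against -0.01. Scaling by total counts moved the ratios of conventional 3D over shControl down by 0.25, left 4 members called and turned the background to 9.93% higher and 21.3% lower. Tap2 and Psmb10 were then inside 2-fold, at 0.87 and 0.99. These 2 comparisons share the shControl library.

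Between the plain-count libraries, 4 members were higher beyond 2-fold in the overexpression-labelled library than in the knockdown-labelled one (Tap1, Tap2, Tapbp and H2-K1) and 0 lower, against 17.7% of all 12305 genes higher and 14.9% lower. The 7 members tested had a median log2 ratio of 1.52, against -0.03 over all genes. Without the members that share 10% or more of their words on either strand, 2 were called, Tap1 and H2-K1. Tapbp was left out there mainly for its antisense partner Gm19412 (20.3% of its words).

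**Figure D3:**
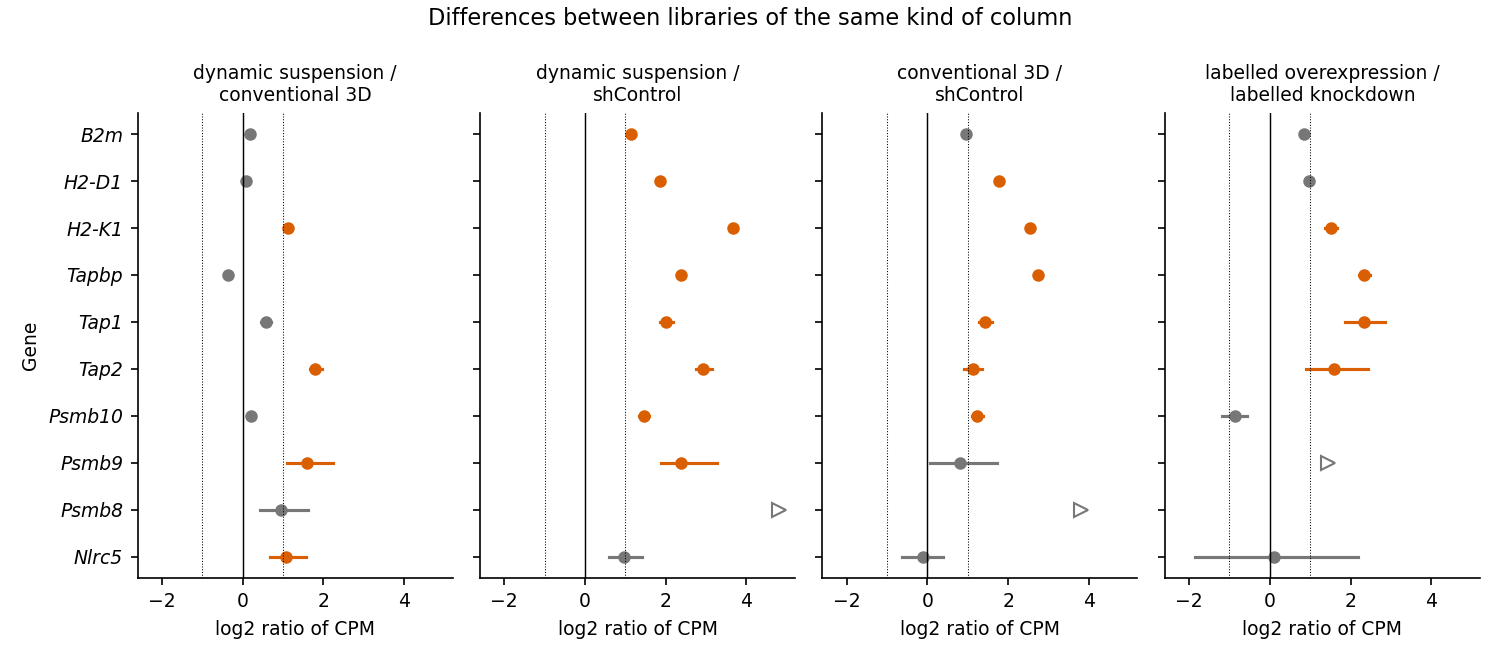
Log2 ratio of CPM for each gene in the 4 comparisons within a kind of column, with 95% counting intervals, dotted lines at 2-fold, orange for genes higher beyond 2-fold and grey for the others. Open arrowheads are ratios to the floor of 3 counts where 1 library had 0 counts, and Psmb8 is not drawn in the last panel because both libraries had 0. In the second panel 8 genes are called, and in the first 4.

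**Figure D4:**
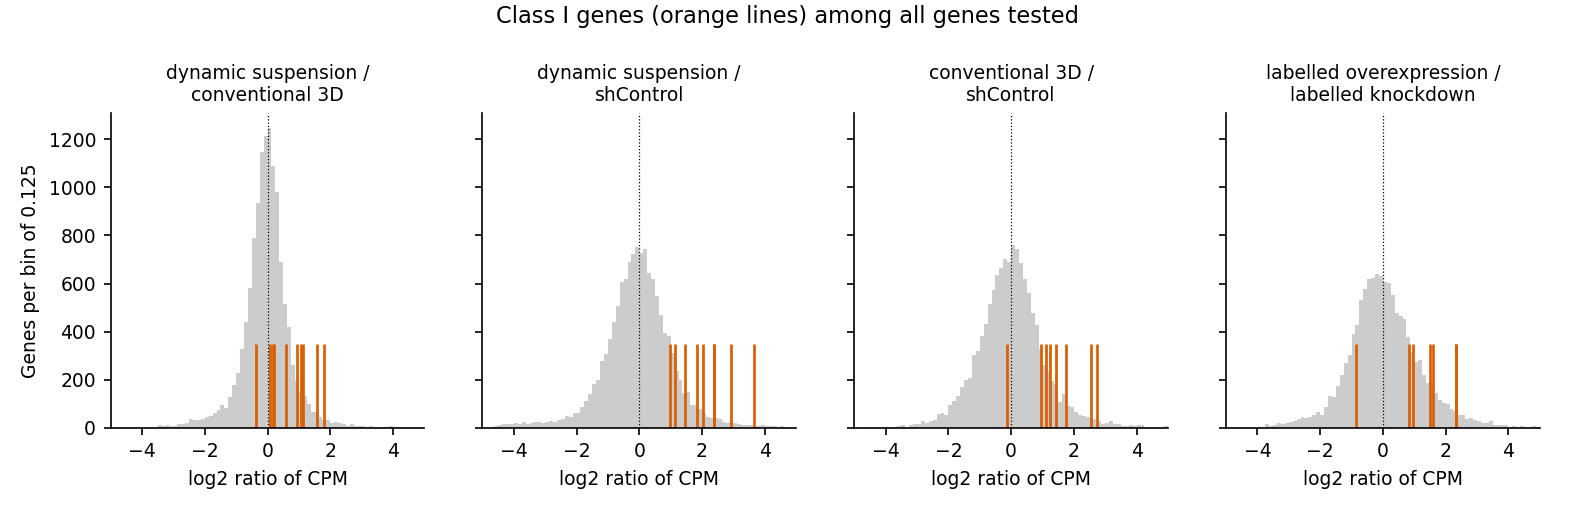
Number of genes per bin of the log2 ratio of CPM over all genes tested (grey bars), with a line for each class I gene tested (orange, of arbitrary height), in the same 4 comparisons. The lines lie mostly to the right of the centre, with a median of 2.02 for dynamic suspension over shControl against -0.03 for all genes.

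Set against shControl across the kinds of column, the knockdown-labelled library had 3 members lower beyond 2-fold (B2m, Tap1 and Tap2) and 0 higher, against 15.7% of all 12639 genes lower and 8.05% higher. B2m had a log2 ratio of -1.35, Tap1 of -1.33 and Tap2 of -1.50, while H2-K1 was at 0.63 and H2-D1 at 0.16. The overexpression-labelled library had 3 members higher (Tapbp at 1.78, H2-K1 at 2.15 and H2-D1 at 1.13) and 0 lower, against 16.1% of all 12881 genes higher and 20.1% lower. B2m was at -0.51 there, and Tap1 at 0.997 was just short of 2-fold. In both comparisons the kind of column and the group cannot be told apart.

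Other class I and class I-like heavy chains mostly resembled the members in their direction over shControl. Of 17 such genes, 9 were measured, meaning that they averaged 1 CPM or more across libraries. Of these, 7 were called higher in dynamic suspension than in shControl and 6 in conventional 3D than in shControl, against 13.8% and 14.0% of all genes tested. In both, 0 were called lower, against 14.8% and 14.9%, and their median log2 ratios were 1.61 and 2.17. In dynamic suspension against conventional 3D 2 were higher and 1 lower, against 6.44% and 7.64% of all genes tested. Between the overexpression-labelled and knockdown-labelled libraries 4 were higher and 1 lower, against 17.7% and 14.9%. H2-T23, which encodes the NK-cell inhibitory ligand Qa-1 (14.5% of words shared), was 15.5, 20.7 and 0.877 CPM in conventional 3D, dynamic suspension and shControl, and 0.984 and 9.82 CPM in the knockdown-labelled and overexpression-labelled libraries. Mr1, which presents microbial vitamin metabolites to T cells, was 76.7, 82.9 and 27.1 CPM and then 21.7 and 126 CPM in the same order. Hfe, an iron regulator of this fold, was 60.6, 33.4 and 13.2 CPM and then 13.1 and 58.9 CPM. H2-T22 (53.5% of words shared) was 73.0, 112 and 21.3 CPM in the estimated columns. H2-Q1 was 3.63 and 3.31 CPM in the cultures without a construct and at 0 counts in shControl. Cd1d1, which presents lipids (19.1% of words shared), was 0.282 CPM in conventional 3D, 1.77 in dynamic suspension and 0.942 in shControl. Its log2 ratio of conventional 3D over shControl was -1.58 (-2.67 to -0.90), with a pair mean below the CPM limit for a call. H2-Q4 (36.4% of words shared) was also lower in conventional 3D than in shControl, inside 2-fold, at 9.02 against 13.9 CPM.

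Of 12 measured genes that trim and load peptides, dynamic suspension had 1 higher against conventional 3D and 2 against shControl. Over all genes tested 6.44% and 13.8% were higher, so these counts were near the background. In both comparisons 0 were lower, against 7.64% and 14.8%. In conventional 3D against shControl 0 were higher and 1 lower, against 14.0% and 14.9% of all genes tested. Between the overexpression-labelled and knockdown-labelled libraries 1 was higher, against 17.7%. Erap1, the aminopeptidase that trims peptides in the endoplasmic reticulum (10.7% of words shared), was 28.4, 50.0 and 15.5 CPM in conventional 3D, dynamic suspension and shControl, and 6.69 and 15.7 CPM in the knockdown-labelled and overexpression-labelled libraries. Tapbpl, the gene of the tapasin relative TAPBPR, was 7.14, 12.9 and 4.48 CPM in the estimated columns. The general chaperone gene Canx went the other way, at 505, 581 and 1056 CPM. Hspa5, which encodes the chaperone BiP, was 607, 1442 and 1003 CPM.

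The proteasome activator PA28 has 2 interferon-inducible subunit genes, Psme1 and Psme2. Psme2 (28.3% of words shared) was 58.3, 65.3 and 19.6 CPM in conventional 3D, dynamic suspension and shControl, and Psme1 was 151, 107 and 54.3 CPM. Of 5 activator and assembly genes, 1 was higher in dynamic suspension over shControl (Psme2), against 13.8% of all genes tested. In conventional 3D over shControl 2 were higher and 1 lower, against 14.0% and 14.9%. Between the culture methods 0 differed beyond 2-fold, where 6.44% of all genes were higher and 7.64% lower in dynamic suspension. Pomp, a proteasome assembly factor, was the lower one (68.1 against 138 CPM). Psme3, which encodes the nuclear activator, was 338 CPM in the knockdown-labelled library and 165 in the overexpression-labelled one.

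Regulators of the members were measured as well. Of 12 genes of interferon signalling, 4 were higher beyond 2-fold in dynamic suspension over shControl, 3 in conventional 3D over shControl and 0 between the culture methods. Over all genes tested the shares higher were 13.8%, 14.0% and 6.44%. In each of these comparisons 0 of the 12 were lower, against 14.8%, 14.9% and 7.64%. Their median log2 ratios were 0.75, 0.49 and 0.16. Between the overexpression-labelled and knockdown-labelled libraries 3 were higher and 0 lower (median 0.41), against 17.7% and 14.9% of all genes tested. Irf9, the DNA-binding subunit of the interferon-activated complex, was 77.2, 74.1 and 9.77 CPM in conventional 3D, dynamic suspension and shControl, and 4.79 and 17.6 CPM in the knockdown-labelled and overexpression-labelled libraries. Stat2 was 42.5, 48.0 and 8.41 CPM and then 11.03 and 21.4 CPM, and Jak2, a receptor kinase, was 40.0, 65.7 and 30.3 CPM and then 24.8 and 54.5 CPM. Irf1, the factor that binds class I promoters after interferon, was inside 2-fold in all 6 comparisons, at 39.5, 42.3 and 22.1 CPM and then 16.8 and 13.0 CPM.

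Of 5 NF-kappaB subunit genes, 3 were higher in dynamic suspension over shControl (Nfkb2, Relb and Rel), against 13.8% of all genes tested. In conventional 3D over shControl 2 were higher (Nfkb2 and Relb), against 14.0%. Between the culture methods 0 differed, where 6.44% of all genes were higher and 7.64% lower in dynamic suspension. Nfkb2 (14.9% of words shared) was 189, 149 and 67.1 CPM and Relb 70.2, 59.2 and 29.0 CPM in conventional 3D, dynamic suspension and shControl. Nfkb1 was 112 CPM in the knockdown-labelled library and 42.7 in the overexpression-labelled one, and Rel went the other way there, at 4.46 and 11.5 CPM. Among 8 genes of the complex with which NLRC5 acts at these promoters, Rfx5 (22.3% of words shared) was higher in conventional 3D over shControl, at 30.8 against 10.4 CPM. Nfyc (22.2%) was 18.4, 45.1 and 45.8 CPM in the estimated columns. Of 8 genes that hold class I genes or proteins down, Ezh2, the histone methyltransferase of PRC2, was 55.5, 39.6 and 207 CPM in the estimated columns and 134 and 27.9 CPM in the knockdown-labelled and overexpression-labelled libraries. It was the only one of the 8 beyond 2-fold within a kind of column, lower in 3 of the 4 comparisons. In those, 14.8% to 14.9% of all genes tested were lower.

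Of 11 class II genes, 3 reached the mean of 1 CPM: Cd74, the invariant chain, at 10.8, 10.6 and 1.56 CPM in conventional 3D, dynamic suspension and shControl and 0.656 and 4.05 CPM in the knockdown-labelled and overexpression-labelled libraries, H2-DMb1 (22.7% of words shared) at 23.5, 12.5 and 5.94 CPM and then 1.05 and 16.5 CPM, and H2-DMa at 0.658 to 1.52 CPM. H2-Aa, H2-Ab1 and H2-Ob were at 0 counts in every library. Of 13 ligands of NK cells and immune checkpoints, 8 were measured. Cd274, which encodes PD-L1 (12.4% of words shared), was higher beyond 2-fold in all 4 comparisons within a kind, at 24.3, 77.8 and 8.17 CPM and then 4.66 and 34.7 CPM. Lgals9, galectin-9, was 142, 181 and 28.8 CPM and then 24.4 and 49.8 CPM. Raet1d, an NKG2D ligand (55.8% of words shared), was highest in shControl of the estimated columns, at 6.35, 5.41 and 16.4 CPM. Ulbp1, another NKG2D ligand, was 0.591 and 2.80 CPM, and Nectin2, a ligand of DNAM-1, 166 and 71.0 CPM, in the knockdown-labelled and overexpression-labelled libraries.

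Markers of other cell types were set beside these differences. Of 12 immune markers 1 was measured, Cd68, and their summed level was 15.8 CPM in conventional 3D, 14.1 in dynamic suspension and 4.56 in shControl, and 0.853 and 8.45 CPM in the knockdown-labelled and overexpression-labelled libraries. Ptprc, which marks all leukocytes, had 8 counts in conventional 3D and 0 in every other library. Cd68, a lysosomal gene of macrophages and other cells, had 658, 799 and 219 counts in conventional 3D, dynamic suspension and shControl. The myeloid genes Lyz2, at 149, 49 and 53 counts, Csf1r, at 19, 0 and 5, and Adgre1, at 6, 0 and 0, were instead highest in conventional 3D of these columns. Fibroblast markers, 6 of 8 measured, summed to 129 CPM in conventional 3D, 37.6 in dynamic suspension and 38.4 in shControl, and to 35.6 and 15.8 CPM in the plain columns. Pdgfrb alone was 24.6 and 12.6 CPM of the sums in the plain columns, where Dcn, Lum and Thy1 were at 0 counts. It was 7.48, 11.2 and 5.91 CPM in conventional 3D, dynamic suspension and shControl, whereas each other fibroblast marker was highest in conventional 3D of these columns. Endothelial markers, 1 of 8 measured, summed to 1.85 to 10.7 CPM, and epithelial markers, 0 of 6 measured, to 0.119 to 0.977 CPM. The part of these cell types' transcripts in the class I values was not tested.

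By the distance between profiles, the non-members most like the members were Hid1, Cpeb3, Per1, Gstp1, Eid1 and Pgm1. Each profile was the log2 CPM in the 5 libraries, centred within each kind of column, and was set against the median profile of the 10 members. The distances were 0.106 for Hid1, 0.120 for Cpeb3, 0.1252 for Per1, 0.161 for Gstp1, 0.169 for Eid1 and 0.172 for Pgm1, against a median of 1.80 over the 9174 candidate genes. Per1, a circadian clock gene, was 62.1, 83.6 and 23.6 CPM in conventional 3D, dynamic suspension and shControl and 40.2 and 102 CPM in the knockdown-labelled and overexpression-labelled libraries. The members themselves lay between 0.335 (H2-D1) and 2.37 (Psmb8) from their own median. Gstp1, Eid1 and Pgm1 shared 33.7%, 29.1% and 12.2% of their words with other genes. With 5 libraries such a likeness is a description only.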

How the data were processed

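Per the labels' protocols, poly(A)+ RNA was made into strand-specific libraries and sequenced as paired 150 bp reads. As listed in the submitters' processing notes, the tools were HISAT2, StringTie and cutadapt, and GRCm38.p6 and mm10 are the builds named, and the counting program is not given in the sources used here. Plain counts were deposited for the pair labelled knockdown and overexpression, by the pattern of the values. The deposited values of the other 3 libraries are estimated counts, by their pattern: 796 genes had a value of 4 and 412 a value of 3 in conventional 3D, against 422 and 580 in the knockdown-labelled library. All 54100 identifiers matched GENCODE M21 (GRCm38), which gave names, coordinates, merged exon lengths and shared words of 50 bases. No column was left unassigned.

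Counts were scaled by TMM (edgeR 4.0.16, R 4.3.3) over the 5 libraries, with factors of 0.869 to 1.091. Log2 ratios used a prior count of 2, and their 95% intervals are exact conditional binomial (Clopper-Pearson, scipy 1.17.1), those of CPM exact Poisson. With 1 library per group no test between conditions was run. The code that makes the calls was checked on simulated counts. Those counts held Poisson error alone, so they check the code and not whether a call would hold in repeat cultures. Named genes are all members, up to 6 genes per list with the largest ratio among those beyond 2-fold within a kind of column, Psmb5, Psmb6, Psmb7, Irf1 and Hif1a, and the 6 nearest profiles, except that some are not reported here. Ptprc, Cd68, Lyz2, Csf1r, Adgre1, Pdgfrb, Dcn, Lum, Thy1, H2-Q4 and the overlapping noncoding genes were named after their values were seen. The members and lists were chosen with earlier results of these data known. Alternatives were other scalings, prior count, CPM limit, fold and members.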

Additional observations from a re-analysis of the deposited data

How the results depend on the processing

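Of 96 counts of members beyond 2-fold recomputed under other settings, 88 stayed within 1.5 times the reported count. The others were these. Where the mean had to reach 10 CPM in place of 1, the members higher were 2 in place of 4 in dynamic suspension against conventional 3D and 2 in place of 4 in the overexpression-labelled library against the knockdown-labelled one, and those lower in the knockdown-labelled library against shControl were 1 in place of 3; fewer members passed the limit. Without any CPM limit, 5 were lower in the knockdown-labelled library and 1 in the overexpression-labelled library, each against shControl. With a 1.5-fold rule, 1 was lower in the overexpression-labelled library against the knockdown-labelled one, and 1 was higher in the knockdown-labelled library against shControl. Among the 6 members with under 10% shared words, 2 were higher between the overexpression-labelled and knockdown-labelled libraries. Of 228 ratios of single members under other settings, 0 called ones changed sign. The ratio of Tap2 between the overexpression-labelled library and shControl, 0.09, became -0.03 with TMM over protein-coding genes of little shared sequence, which moved the ratios against shControl by -0.12 in both plain columns. DESeq2 (1.42.0) size factors and TMM within a kind of column, the latter added after the data were seen, moved no count by over 1.5 times. No paired analysis was possible because each group has 1 library. Depth limits Psmb8, Psmb9 and Nlrc5, which had at most 150 counts in any library.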
